A study of Mus musculus with 7 samples.

Results

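HSP90 and its cytosolic co-chaperones are described here as 10 genes, taken by name from a table of 54532 mouse genes: the chaperone genes Hsp90aa1 and Hsp90ab1, and the co-chaperone genes Stip1, Cdc37, Ahsa1, Ptges3, Chordc1, Fkbp4, Ppid and Stub1. All 10 were found once and all 10 passed the filter on low counts. RNA of mouse motor cortex was sequenced in 4 conditional knockout (cKO) and 3 wild-type (WT) libraries. Every animal had received a virus named GA100 in both lateral ventricles on postnatal day 0, and tissue was taken 3 months later, after behavioural testing. By its title the study concerns mice with C9orf72 poly-GA, a glycine-alanine repeat protein, and TIA1, an RNA-binding protein of stress granules, which makes Tia1 the likely target of the knockout, though no label names it. The labels give neither the Cre driver nor the deleted exons nor the promoter and cell range of the virus, and both genotypes carried the virus, so the comparison is of genotypes under the same injection. Nothing says in so many words that each library is 1 mouse, so a p-value here measures library-to-library spread, which may be technical in part. Each group held libraries of both sexes by the Y-linked gene Ddx3y, and so more than 1 animal.

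Total gene counts per library were 15181390 to 16403202 in cKO and 15213977 to 16463721 in WT. Tia1 did not separate the genotypes, with 79.1 ± 4.29 CPM (counts scaled to TMM-adjusted library size; SD, n = 4) in cKO and 75.1 ± 18.4 CPM (SD, n = 3) in WT, so this gene gives no check of which libraries are knockouts. Markers of excitatory cortical neurons summed to 5146 to 6239 CPM in cKO and 6421 to 7007 CPM in WT, with 0 of 8 markers at 0 counts, and all 8 had lower values in cKO. Oligodendrocyte markers summed to 4081 to 8125 CPM in cKO and 3744 to 5725 CPM in WT, with higher values in cKO for 8 of 8. Several libraries stood apart, in both groups. In cKO replicate 3 the 8 olfactory bulb markers, of which 6 passed the filter on low counts, summed to 409 CPM, against 108 to 144 CPM in the other cKO libraries and 116 to 138 CPM in WT. That library also had the highest share of mitochondrial counts, 7.54%, against 5.50% to 6.40% in WT. In cKO replicate 4 the 8 choroid plexus markers, of which 5 passed the filter, summed to 177 CPM, against 21.3 to 23.5 CPM in the other cKO libraries and at most 24.0 CPM in WT. Striatal markers were highest in cKO replicate 2, at 2070 CPM, against 1182 to 1580 CPM in the other cKO libraries and 1154 to 1457 CPM in WT. WT replicate 1 had the lowest oligodendrocyte sum, 3744 CPM, against 5725 and 5236 CPM in WT replicates 2 and 3. Its microglia sum was the highest, 399 CPM, against 339 and 326 CPM in those libraries. Meningeal fibroblast markers summed to 76.6 CPM in WT replicate 1 and 74.9 CPM in cKO replicate 3, against 33.3 to 49.6 CPM in the others. The part of tissue make-up in the values below was not tested. For the chaperone and co-chaperone genes named at the start, log2 fold changes that lean on cKO replicate 3 are also given without it. Fold changes of the other gene lists, Hspa1a among them, are given with all libraries only. So are the correlations between genes, and how far these values rest on cKO replicate 3 was not tested. In bulk tissue, fewer cells of a type and less RNA per cell cannot be told apart.

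HSP90 is an ATP-driven chaperone that acts late in folding, on proteins such as steroid hormone receptors, many kinases and tau, and it is among the most abundant proteins of the cytosol. Co-chaperones steer it through its cycle: some hand over clients, some slow or speed the ATPase, some close the cycle, and CHIP, the product of Stub1, tags clients for degradation. When HSP90 is occupied by unfolded protein, heat shock factor 1 (HSF1) is set free and raises transcription of heat shock genes, several HSP90 co-chaperones among them.

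None of the 10 genes passed the threshold between cKO and WT. The edgeR quasi-likelihood test called 0 of 10 at a Benjamini-Hochberg adjusted p under 0.05, against a background of 0% of the 16308 genes tested; DESeq2, which called 0.0736% of genes, and limma-voom, which called 0%, also called 0 of the 10. At an unadjusted p under 0.05 stood 3 of the 10, where the background was 7.14%: Chordc1 and Ptges3 with higher values in cKO and Stub1 with lower values. DESeq2 and limma-voom each had 3 of 10 at that level too. The log2 fold change, cKO over WT here and throughout, was positive for 7 genes and negative for 3, with a median of 0.10; over all genes tested 51.8% were positive and the median was 0.01. Leaving out 1 library at a time gave medians of 0.06 (without WT replicate 2) to 0.15 (without WT replicate 3), and 0.08 without cKO replicate 3. The number at an unadjusted p under 0.05 was 1 (Chordc1) without WT replicate 1, 2 (Chordc1 and Ptges3) without cKO replicate 3 and 5 without cKO replicate 1. With no filter on low counts, edgeR called Chordc1 at an adjusted p of 0.011, among 198 of 31277 genes (0.633%) called in that fit. The SEs of that fit differed from those of the main fit. They were 0.096 for Chordc1, Hsp90aa1 and Fkbp4 alike, against 0.109, 0.146 and 0.076 in the main fit. Why they differed was not tested.

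**Figure D1:**
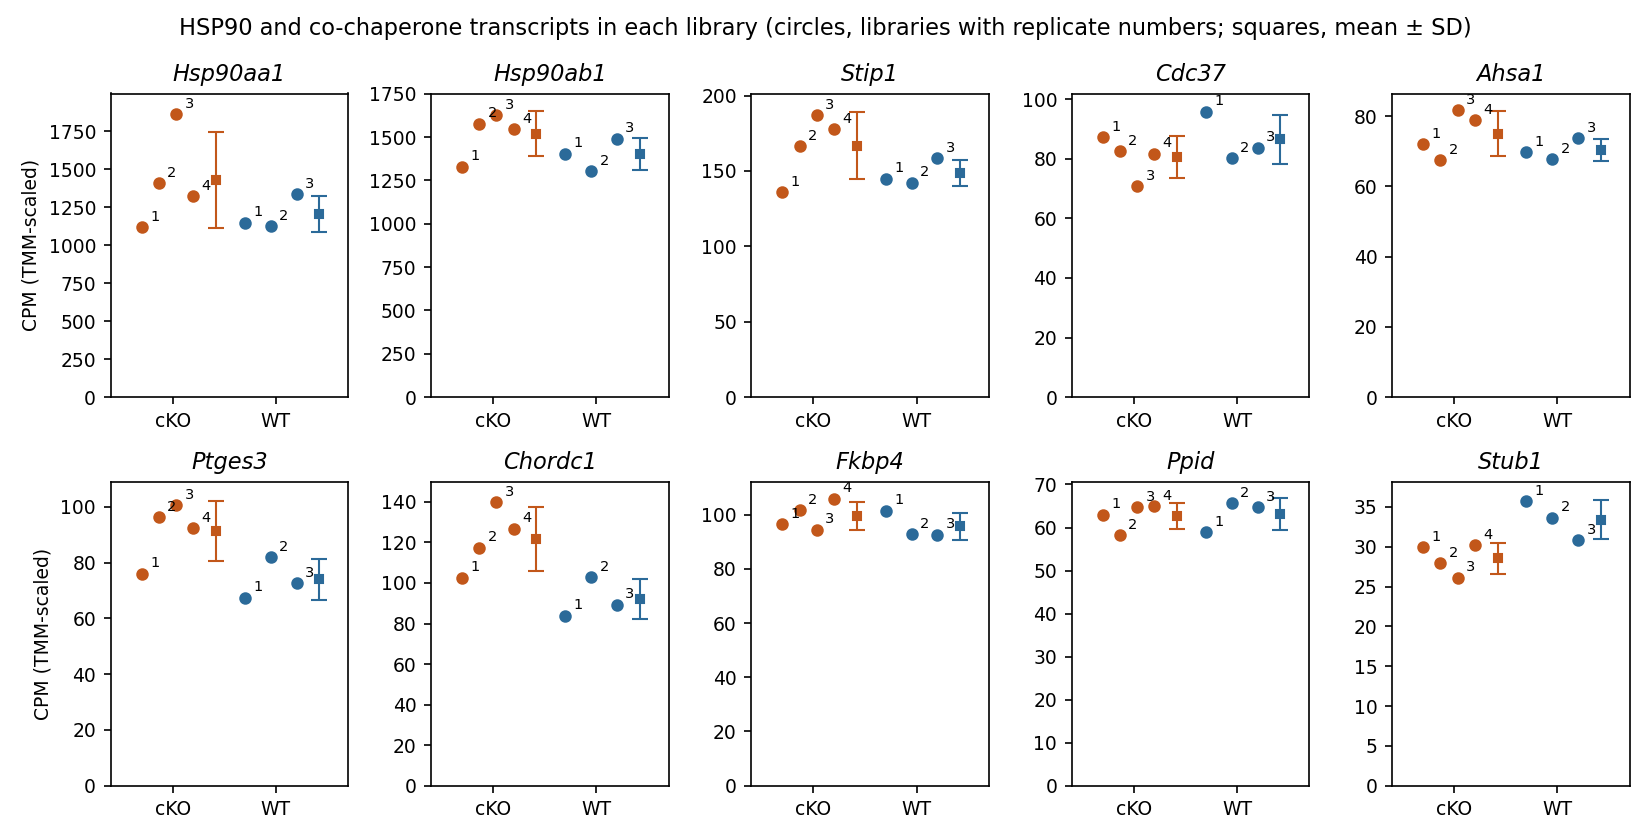
Each panel plots 1 gene, with CPM on TMM-scaled library sizes on the vertical axis, starting at 0; circles are single libraries marked with their replicate number (4 cKO, 3 WT), and squares with bars are the group mean ± SD. Stub1 has all cKO values (26.1 to 30.2 CPM) below all WT values (30.8 to 35.7 CPM), and the other 9 genes overlap between groups.

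The chaperone itself is encoded by Hsp90ab1, the constitutive form, and Hsp90aa1, the form that stress induces. Both proteins end in the short acidic motif that the tetratricopeptide (TPR) domains of Stip1, Fkbp4, Ppid and Stub1 bind, and the end of each coding sequence is shown for that reason. The last 45 coding bases are given 5′ to 3′ on the coding strand, from GENCODE M21 transcripts on GRCm38, and capitals mark the last 15 bases, which encode the docking motif.
Hsp90aa1 (minus strand, chr12:110691543-110691587): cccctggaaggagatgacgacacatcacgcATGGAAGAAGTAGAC
Hsp90ab1 (minus strand, chr17:45568018-45568062): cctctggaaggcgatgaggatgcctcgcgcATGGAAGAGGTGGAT
Over 2171 aligned coding bases the genes were 76.6% identical, and the longest identical run was 33 bases. The treatment of reads that match both genes is not given in the sources used here.

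Hsp90aa1 (ENSMUSG00000021270, chromosome 12, 110690605 to 110702728, mm10, minus strand, protein-coding) had 1120.2, 1409, 1866 and 1325 CPM in cKO replicates 1 to 4, against 1149.7, 1127 and 1339 CPM in WT replicates 1 to 3. The groups overlapped: cKO replicate 1 held the lowest of the 7 values and cKO replicate 3 the highest. The means were 1430.0 ± 315 CPM (SD, n = 4) in cKO and 1205 ± 117 CPM (SD, n = 3) in WT. The log2 fold change was 0.25 ± 0.15 (SE), its 95% interval ran from -0.07 to 0.56, and the adjusted p by edgeR was 0.735. Without cKO replicate 3 it was 0.08.

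Hsp90ab1 (ENSMUSG00000023944, chromosome 17, 45567775 to 45573271, mm10, minus strand, protein-coding) had 1329, 1577, 1626 and 1546 CPM in cKO replicates 1 to 4, against 1404, 1305 and 1490.3 CPM in WT replicates 1 to 3. Here cKO replicates 2, 3 and 4 lay above all WT libraries, while cKO replicate 1 lay within the WT range. The log2 fold change was 0.12 ± 0.09 (SE), its 95% interval ran from -0.08 to 0.32, and the adjusted p by edgeR was 0.795. It was 0.06 without WT replicate 2 and 0.08 without cKO replicate 3.

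Together the HSP90 genes made 720, 876, 1019 and 846 FPKM (the authors' values, fragments scaled for gene length and library size) in cKO replicates 1 to 4, against 763, 717 and 838 FPKM in WT replicates 1 to 3. That was 0.284% to 0.374% of each cKO library's FPKM total and 0.282% to 0.330% of each WT library's. The mean sum was 865 ± 123 FPKM in cKO (SD, n = 4) and 773 ± 61.3 FPKM in WT (SD, n = 3), a log2 difference of 0.16 (exact two-sided permutation p = 0.286 over 35 splits, where the smallest possible p is 0.0571). The log2 difference was 0.24 without cKO replicate 1, 0.07 without cKO replicate 3 and 0.10 without WT replicate 2.

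Per length, in FPKM, the inducible form stood below the constitutive form in all 7 libraries. The gene lengths were 3931 bases for Hsp90aa1 and 2999 for Hsp90ab1. In CPM, not scaled for length, Hsp90aa1 was the higher in cKO replicate 3 (1866 against 1626 CPM) and the lower elsewhere. The FPKM ratio of Hsp90aa1 to Hsp90ab1 was 0.643, 0.682, 0.876 and 0.654 in cKO replicates 1 to 4, against 0.625, 0.659 and 0.686 in WT replicates 1 to 3. Only cKO replicate 3 lay outside the range of 0.625 to 0.686 that held the other 6 libraries. The mean log2 difference of the ratio was 0.11 (exact two-sided permutation p = 0.571), and without cKO replicate 3 it was 0.01.

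**Figure D2:**
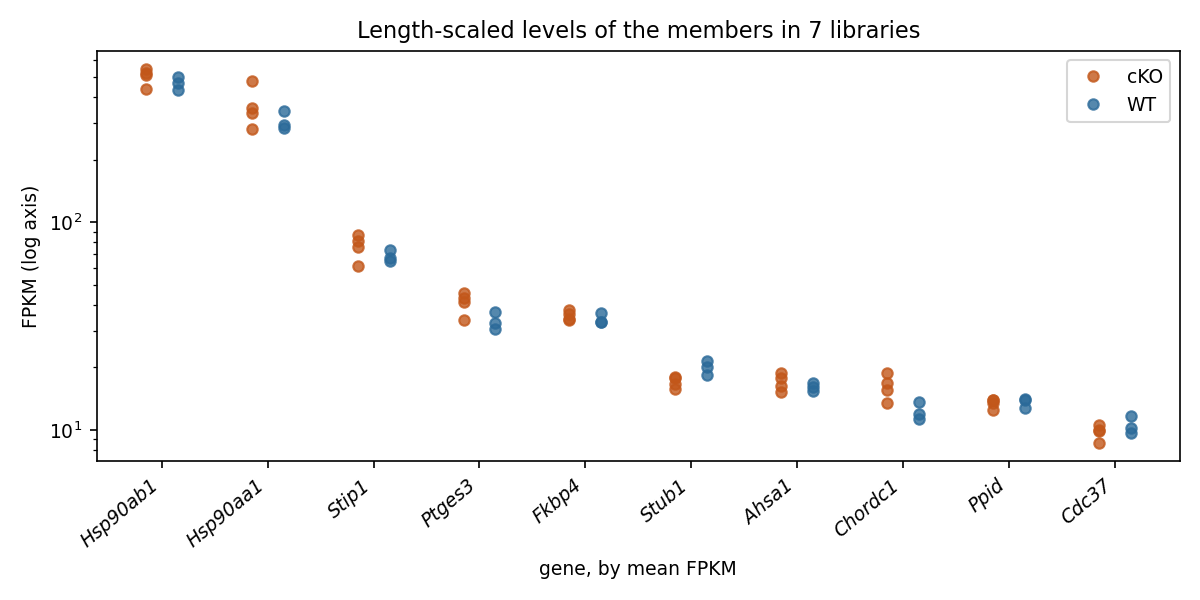
FPKM on a log axis for the 10 genes in order of their mean over 7 libraries; circles are single libraries, 4 cKO to the left and 3 WT to the right of each gene. Hsp90ab1 and Hsp90aa1 average 488 and 338 FPKM, and the co-chaperones run from 72.9 FPKM (Stip1) to 10.1 FPKM (Cdc37).

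Per length, the co-chaperone messages stood far below those of the chaperone. Summed over the 8 co-chaperone genes they were 201 to 241 FPKM in cKO and 207 to 211 FPKM in WT, or 23.7 to 28.0 per 100 FPKM of HSP90 in cKO and 25.1 to 28.9 in WT. Mean FPKM over the 7 libraries ran in the order Hsp90ab1 (488), Hsp90aa1 (338), Stip1 (72.9), Ptges3 (37.7), Fkbp4 (34.9), Stub1 (18.2), Ahsa1 (16.6), Chordc1 (14.5), Ppid (13.5) and Cdc37 (10.1). Library ranges did not overlap at the steps from Hsp90aa1 to Stip1, from Stip1 to Ptges3, from Fkbp4 to Stub1 and from Ppid to Cdc37. Ptges3 and Fkbp4 exchanged places between libraries (Ptges3 higher in 4 of 7), as did Chordc1 and Ppid (Chordc1 higher in 4 of 7). Ranges also overlapped from Hsp90ab1 to Hsp90aa1, from Stub1 to Ahsa1 and from Ahsa1 to Chordc1, although the order held within 7, 6 and 6 of the 7 libraries. The FPKM order depends on gene length, which was 8194 bases for Cdc37, 7498 for Chordc1 and 1672 for Stub1. By mean CPM, which is not scaled for length, Stub1 was the lowest at 30.6. Cdc37 had 83.1 CPM, Ptges3 83.9 CPM and Chordc1 109 CPM.

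Chordc1 encodes a zinc-binding HSP90 partner, also called morgana, and is itself a heat shock gene. It had the largest fold change of the 10. Chordc1 (ENSMUSG00000001774, chromosome 9, 18292125 to 18317442, mm10, plus strand, protein-coding) had 102.6, 117, 139.8 and 127 CPM in cKO replicates 1 to 4, against 83.9, 103.1 and 89.4 CPM in WT replicates 1 to 3. The groups met at 1 point: cKO replicate 1 (102.6 CPM) lay just under WT replicate 2 (103.1 CPM), and the other 3 cKO libraries lay above all WT libraries. The mean was 122 ± 15.7 CPM in cKO (SD, n = 4) and 92.1 ± 9.88 CPM in WT (SD, n = 3), a log2 fold change of 0.40 ± 0.11 (SE) with a 95% interval from 0.16 to 0.64. Its unadjusted p was 0.00313 and its edgeR adjusted p 0.679. Without cKO replicate 3 the log2 fold change was 0.32, and leaving out each library in turn gave 0.32 to 0.48. Without WT replicate 1 and cKO replicate 3 together it was 0.26.

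The RefSeq start of Chordc1 carries a match to the sequence that HSF1 binds, and it is shown because this gene differed most among the 10. Binding was not measured, and a tie between the match and the fold change was not tested. HSF1 recognises heat shock elements, alternating units of GAA and its reverse complement TTC spaced by 2 bases. Windows of 250 bases before to 50 after each RefSeq start site (GRCm38.p6) were searched on both strands; 7 of the 10 genes have a window, and Hsp90aa1, Hsp90ab1 and Ppid have none in the table. Capitals mark matches to GAANNTTC or TTCNNGAA, which overlap each other in longer runs, and each sequence reads 5′ to 3′ along its gene. The Chordc1 stretch runs from 130 bases before to 20 bases after the start site, and the matches of the other genes lie before their RefSeq start sites. The bounds of the counted genes differ from these start sites. By those bounds the Stub1 stretch lies inside its gene (25830636 to 25833361), as does the Chordc1 stretch (18292125 to 18317442).
Chordc1 (plus strand, chr9:18292137-18292286): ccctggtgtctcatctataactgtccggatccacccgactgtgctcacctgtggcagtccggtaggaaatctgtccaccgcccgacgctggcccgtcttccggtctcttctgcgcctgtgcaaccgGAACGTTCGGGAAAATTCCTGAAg
Fkbp4 (minus strand, chr6:128438789-128438818): ccgcttctctaGAAAGTTCtccgctcccgc
Stub1 (minus strand, chr17:25833024-25833053): agagcgcggcgGAAGCTTCtcagagctaag
Cdc37 (minus strand, chr9:21150086-21150115): tcggcgggaacTTCCAGAAggcctcaccac
In Chordc1 the 23 capital bases form 5 alternating units in a row, from 4 bases before to 19 bases after the start site. That 5-unit pattern (GAANNTTCNNGAANNTTCNNGAA, either strand) was searched for with the Chordc1 window known to hold it, and no other of the 32851 windows did. A 3-unit run (GAANNTTCNNGAA) was in 0.603% of windows, and among the 7 genes only in Chordc1. Single matches, as in Fkbp4, Stub1 and Cdc37, are common: 7.86% of all windows held GAANNTTC and 8.52% held TTCNNGAA. The windows of Stip1, Ahsa1 and Ptges3 held neither, which says only that these letters are not in them.

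Ptges3 encodes p23, which binds the closed, ATP-bound form of HSP90 late in the cycle. Ptges3 (ENSMUSG00000071072, chromosome 10, 128058954 to 128077272, plus strand) had 76.1, 96.3, 100.5 and 92.3 CPM in cKO replicates 1 to 4, against 67.4, 82.1 and 72.6 CPM in WT replicates 1 to 3. Only cKO replicate 1 fell within the WT range. The log2 fold change was 0.30 ± 0.11 (SE), with a 95% interval from 0.07 to 0.53, an unadjusted p of 0.0142 and an edgeR adjusted p of 0.679. Without cKO replicate 3 the Ptges3 value was 0.24, without WT replicate 1 it was 0.23, and without both of these libraries it was 0.19. A processed pseudogene, Ptges3-ps on chromosome 6, held 22.4 to 37.5 CPM in cKO and 18.8 to 26.9 CPM in WT, and how reads that match gene and copy were counted is not given. Gene and copy summed to 103, 120.4, 138 and 115 CPM in cKO replicates 1 to 4, against 94.0, 101 and 99.5 CPM in WT replicates 1 to 3. These sums did not overlap, by a narrow gap, where the background of genes not overlapping and higher in cKO was 3.97%. The sum was formed after the values of the copy were seen, and Ptges3 alone overlapped, so nothing is read from it.

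Stip1, also called HOP, bridges HSP70 and HSP90 so that clients pass from one to the other. Stip1 (ENSMUSG00000024966, chromosome 19, 7020696 to 7040026, minus strand) had 136, 166, 187 and 178 CPM in cKO replicates 1 to 4, against 145, 142 and 159 CPM in WT replicates 1 to 3. As with Hsp90ab1, cKO replicate 1 was the exception: it held the lowest value of all, and the other 3 cKO libraries lay above WT. The log2 fold change was 0.17 ± 0.10 (SE), its 95% interval ran from -0.06 to 0.39, and the adjusted p by edgeR was 0.750. Without cKO replicate 3 it was 0.10.

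Ahsa1 stimulates the ATPase of HSP90, and Cdc37 delivers protein kinases to it. Ahsa1 (ENSMUSG00000021037, chromosome 12, 87266479 to 87273998, plus strand) had 72.1, 67.4, 81.6 and 78.8 CPM in cKO replicates 1 to 4, against 69.8, 67.7 and 73.8 CPM in WT replicates 1 to 3, a log2 fold change of 0.09 ± 0.09 (SE; edgeR adjusted p = 0.836). Cdc37 (ENSMUSG00000019471, chromosome 9, 21133222 to 21149982, minus strand) had 87.2, 82.5, 70.9 and 81.7 CPM in cKO replicates 1 to 4, against 95.8, 80.1 and 83.7 CPM in WT replicates 1 to 3, a log2 fold change of -0.10 ± 0.09 (SE; edgeR adjusted p = 0.825). For Ahsa1 the high values were cKO replicates 3 and 4; for Cdc37 the lowest was cKO replicate 3 and the highest WT replicate 1. The Ahsa1 value was 0.04 without cKO replicate 3, 0.05 without WT replicate 2 and 0.06 without cKO replicate 4. The Cdc37 value was -0.17 without WT replicate 2, -0.03 without WT replicate 1, -0.05 without cKO replicate 3 and 0.03 without both of these.

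Fkbp4 and Ppid encode the immunophilins FKBP52 and cyclophilin 40, TPR proteins of steroid receptor complexes. Fkbp4 (ENSMUSG00000030357, chromosome 6, 128429735 to 128438677, minus strand) averaged 99.7 ± 5.17 CPM in cKO (SD, n = 4; 94.5 to 106) and 95.7 ± 5.09 CPM in WT (SD, n = 3; 92.7 to 102), with a log2 fold change of 0.06 and a 95% interval from -0.11 to 0.22. Ppid (ENSMUSG00000027804, chromosome 3, 79591342 to 79603650, plus strand) averaged 62.7 ± 3.08 CPM in cKO (SD, n = 4; 58.3 to 64.9) and 63.1 ± 3.69 CPM in WT (SD, n = 3; 58.9 to 65.6), with a log2 fold change of -0.01 and a 95% interval from -0.18 to 0.16. The Fkbp4 value was 0.02 without cKO replicate 4, 0.03 without WT replicate 2, 0.04 without WT replicate 3 and 0.10 without WT replicate 1. These genes had the log2 fold changes closest to 0, with edgeR adjusted p of 0.882 for Fkbp4 and 0.987 for Ppid.

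Stub1 encodes CHIP, a ubiquitin ligase that docks on HSP90 and HSP70 and marks their clients for the proteasome. Stub1 (ENSMUSG00000039615, chromosome 17, 25830636 to 25833361, minus strand) had 30.0, 27.9, 26.1 and 30.2 CPM in cKO replicates 1 to 4, against 35.7, 33.7 and 30.8 CPM in WT replicates 1 to 3. It was 1 of the 10 genes whose groups did not overlap, where the background was 7.38% of genes tested (3.42% lower and 3.97% higher in cKO), and the gap was narrow: 30.2 CPM in cKO replicate 4 against 30.8 CPM in WT replicate 3. The log2 fold change was -0.23 ± 0.09 (SE), with a 95% interval from -0.43 to -0.02, an unadjusted p of 0.0339 and an edgeR adjusted p of 0.694. Without cKO replicate 3 it was -0.19, and leaving out each library in turn gave -0.28 to -0.18. Without WT replicate 1 and cKO replicate 3 together it was -0.14. The unadjusted p of Stub1 by edgeR was 0.0593 to 0.126 without cKO replicate 2, cKO replicate 3, WT replicate 1 or WT replicate 2. It was under 0.05 when any other single library was left out. On the other strand lies Jmjd8, from 25828867 to 25831842, so that 25830636 to 25831842 is annotated to both genes, and the strand setting of the counting is not given. Jmjd8 had 12.1 ± 0.412 CPM in cKO (SD, n = 4) and 12.6 ± 0.797 CPM in WT (SD, n = 3), a log2 fold change of -0.05 (edgeR adjusted p = 0.935).

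**Figure D3:**
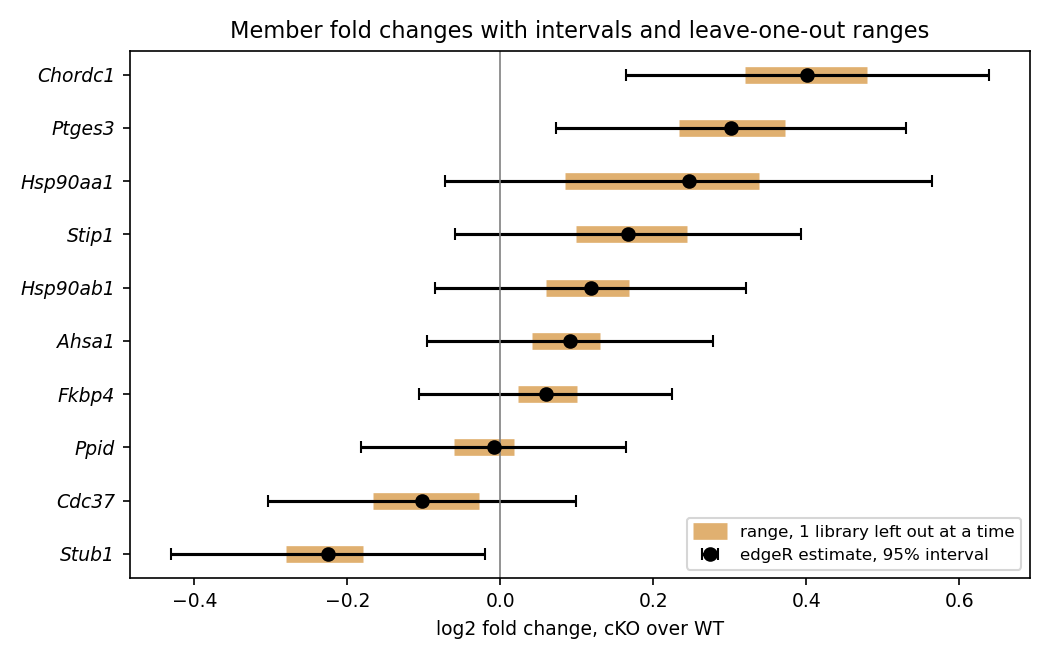
Log2 fold changes of the 10 genes, cKO over WT, on the horizontal axis; black circles and lines are edgeR estimates with 95% intervals, and bands show the range when 1 library at a time is left out. The intervals of Chordc1, Ptges3 and Stub1 lie to one side of 0, and the Hsp90aa1 band reaches from 0.08 to 0.34.

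Across libraries, the genes did not vary as 1 block. In cKO replicate 3 stood the highest values of 6 genes, Hsp90aa1, Hsp90ab1, Stip1, Ahsa1, Ptges3 and Chordc1, and the lowest of Cdc37 and Stub1. WT replicate 1 was its mirror for part of the set, with the highest Cdc37 and Stub1 and the lowest Ptges3 and Chordc1. Within cKO, replicate 1 had the lowest value of 5 genes (Hsp90aa1, Hsp90ab1, Stip1, Ptges3 and Chordc1). In that library and in WT replicate 1 the Y-linked gene Ddx3y had 0 counts, against 1073 to 1386 in the other 5. With Y-linked expression as a covariate Chordc1 had a log2 fold change of 0.38, Ptges3 0.27 and Stub1 -0.22 (edgeR adjusted p between 0.534 and 0.984 over the 10 genes).

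Genes were ranked by how closely their log2 CPM followed each HSP90 gene over the 7 libraries, as a description of 9866 genes with a mean of at least 10 CPM. Closest to Hsp90aa1 were Cntnap5b, Pcm1, Ddx6, Avl9 and Canx (Pearson r from 0.989 to 0.995), and closest to Hsp90ab1 were Rnf168, Gzf1, Dlc1, Col25a1 and Kctd21 (0.961 to 0.971). All these values rest on the same 7 libraries, and cKO replicate 3 is highest in each of the 10 genes named except Gzf1, where cKO replicates 3 and 4 had 50.7 CPM each. Among the co-chaperones Stip1 was nearest to both chaperone genes, at 0.945 for Hsp90ab1 (rank 17) and 0.893 for Hsp90aa1 (rank 513). Stub1 and Cdc37 ran opposite to Hsp90aa1, at -0.822 and -0.786.

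**Figure D4:**
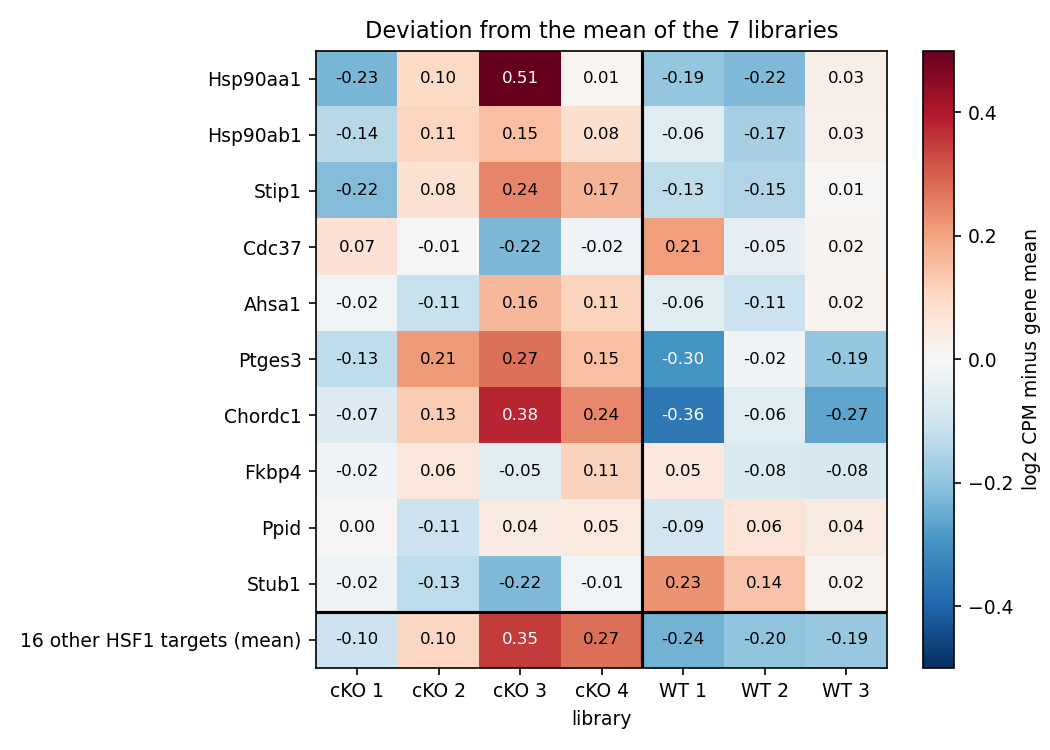
Colour and numbers give log2 CPM minus each gene's mean over the 7 libraries, with genes in rows and libraries in columns (cKO 1 to 4, then WT 1 to 3); the last row is the mean over 16 other HSF1 target genes. Hsp90aa1 reaches 0.51 in cKO 3, while Cdc37 and Stub1 are at -0.22 there.

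Other genes of the HSP90 and heat shock pathways were read from the same fit, in lists chosen with earlier results of these data known. Of 16 other HSF1 target genes all were tested, 14 had higher and 2 lower values in cKO, and the median log2 fold change was 0.28; at an unadjusted p under 0.05 stood 9, all higher, where the background of higher genes was 4.22%, and 0 were called. The inducible HSP70 genes Hspa1b and Hspa1a had 1.59 ± 0.26 and 0.99 ± 0.29 (SE), and Bag3, an HSP70 co-chaperone of autophagy, 0.52 ± 0.15 (edgeR adjusted p of 0.669 for Hspa1b and 0.679 for both others). Hspa1a and Hspa1b are near-identical copies, so the split of reads between them is uncertain. Hspa1a leaned on cKO replicate 3, at 21.8 CPM, against 7.72 to 12.7 CPM in the other cKO libraries and 6.01 to 7.41 CPM in WT. Hspa8, the constitutive HSP70 and the most abundant of the list, had 0.08 ± 0.13. The mean deviation of the list was -0.10, 0.10, 0.35 and 0.27 in cKO replicates 1 to 4, against -0.24, -0.20 and -0.19 in WT replicates 1 to 3. Here too cKO replicates 3 and 4 were highest, but unlike the 10 genes' mean (-0.08 in cKO replicate 1, -0.07 to -0.04 in WT) this mean was above WT in all 4 cKO libraries. Nothing is read from that, as the list was chosen with earlier results known and Hspa1a and Hspa1b both count in this mean. By summed CPM, which the most abundant genes set, the groups overlapped, at 3464 to 4501 CPM in cKO and 3359 to 3834 CPM in WT. The library with the high choroid plexus sum, cKO replicate 4, was second highest in this mean, and the part of that tissue in it was not tested.

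The other 26 cytosolic co-chaperones and adaptors split by sign: of 24 tested, 13 were higher and 11 lower in cKO, with a median of 0.01. At an unadjusted p under 0.05 stood 5, of which 4 were lower, where the background of lower genes was 2.91%. Ahsa2, a relative of Ahsa1, had 17.8 ± 1.77 CPM in cKO (SD, n = 4) and 13.8 ± 1.06 CPM in WT (SD, n = 3), a log2 fold change of 0.36 ± 0.12 (SE). The immunophilin Fkbp8 had 178 ± 7.72 CPM in cKO and 212 ± 28.0 CPM in WT, a log2 fold change of -0.25 ± 0.09 (SE). Fkbp5, the immunophilin that rivals Fkbp4 on steroid receptors and is induced by glucocorticoids, had 62.4 ± 1.65 CPM in cKO and 73.1 ± 8.37 CPM in WT, a log2 fold change of -0.23 ± 0.09 (SE). These 3 genes were named for having the smallest p of the list, so nothing is read from their groups not overlapping (background 7.38%), and none passed (edgeR adjusted p of 0.679 for Ahsa2 and 0.694 for Fkbp8 and Fkbp5). Nudc, the most abundant of the list per length, had 0.03 ± 0.08.

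In other compartments, the endoplasmic reticulum form Hsp90b1 had 309 ± 35.2 CPM in cKO (SD, n = 4) and 268 ± 20.5 CPM in WT (SD, n = 3), a log2 fold change of 0.21 ± 0.10 (SE; edgeR adjusted p = 0.700). Of the heat shock factors and their regulators 4 were tested, 1 higher and 3 lower, with 0 at an unadjusted p under 0.05; Hsbp1, a binding protein of HSF1 and the most abundant of them, had -0.08 ± 0.10. Genes of 28 known HSP90 client proteins had a median of 0.03, with 15 higher and 13 lower in cKO. At an unadjusted p under 0.05 stood 1 of these, Trp53, which encodes p53, at -0.26 ± 0.11 (SE); that is 3.57% of the list, below the background of 7.14%. Pink1, the most abundant client gene per length, had -0.11 ± 0.09.

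**Figure D5:**
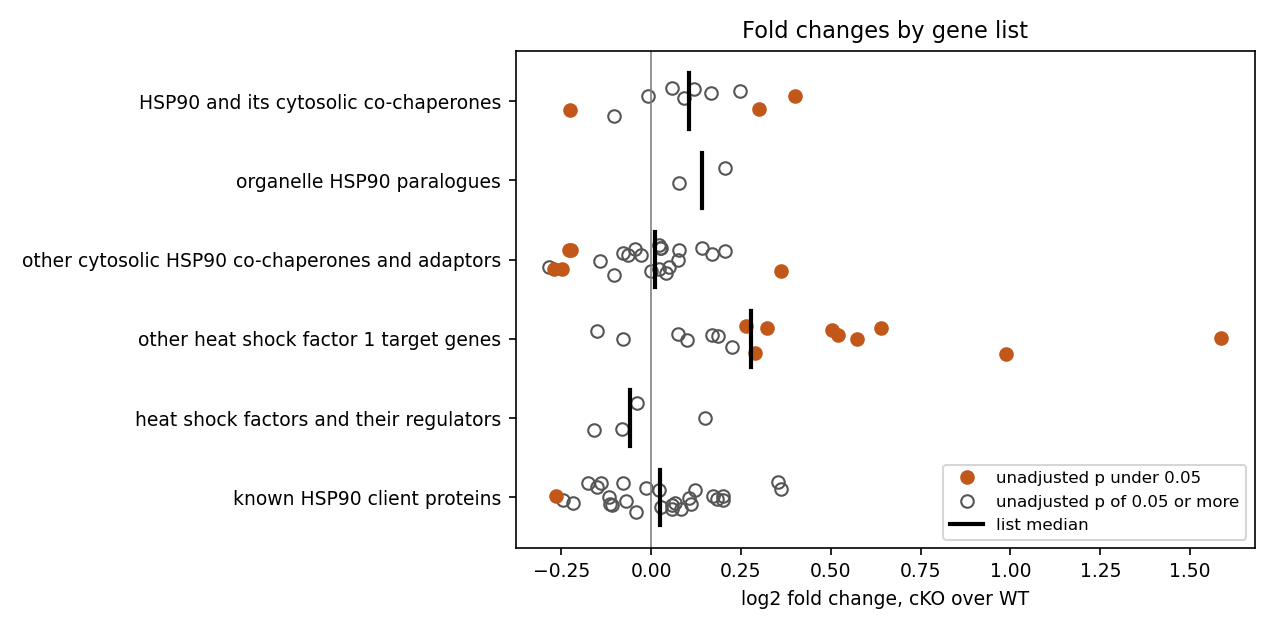
Each circle is 1 gene, placed by its log2 fold change (cKO over WT) within its list; filled circles have an unadjusted p under 0.05 and black bars are list medians. The 10 HSP90 genes have a median of 0.10, between 0.28 for the other HSF1 targets and 0.01 for the other co-chaperones.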

How the data were processed

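The tools named in the submitters' processing notes are featureCounts 1.5.0-p3 and DESeq2 1.20.0, and the build is mm10. For aligner, annotation release, strand setting and multi-mapping reads, the answer is not given in the sources used here. The authors deposited raw gene counts and FPKM per gene; the FPKM values imply library totals of 0.968 to 1.02 times the sum of the counts. From the counts, cKO and WT were compared with edgeR 4.0.16 (R 4.3.3; TMM factors, filterByExpr, quasi-likelihood F test, Benjamini-Hochberg adjustment over 16308 genes). The fit was first run on counts simulated from the spread of these data, for genes that had passed the filter. The changes planted there were larger than any of the 10 genes had, so detection of changes as small as theirs was not examined. SE is the log2 fold change over the root of F. Single values used exact permutation tests (SciPy 1.17.1). Libraries with the same number in both groups correlated at 0.110, 0.128 and 0.122 in their deviations from group means, above a rule of 0.1 for pairing. Some differently numbered libraries correlated more closely (WT replicate 2 with cKO replicate 4 at 0.210, WT replicate 1 with cKO replicate 3 at 0.129). The other differently numbered libraries correlated less, at -0.239 to 0.0845. Whether the titles' numbers mark pairs is therefore unsettled. The main fit is unpaired, and the replicate block is an alternative only. DESeq2 1.42.0, limma 3.58.1, other scalings and filters, FPKM, a replicate block and leaving out libraries were alternatives. The 10 genes and all lists were chosen with earlier results of these data known. Named beside the 10 were, per list, up to 3 genes with the smallest unadjusted p under 0.05 and the 1 with the highest FPKM, the 5 most alike to each HSP90 gene, and Tia1. Ptges3-ps, Jmjd8 and Ddx3y were named after their values were seen. Promoter windows come from RefSeq (GRCm38.p6).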

Additional observations from a re-analysis of the deposited data

Results flagged for a closer look

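Among 34 values examined for a library far from the rest of the 4 cKO libraries, 3 were marked, and chance marks about 1 in 20. In each, cKO replicate 3 stood apart. The FPKM ratio of Hsp90aa1 to Hsp90ab1 was 0.876 there and 0.643 to 0.682 in the other cKO libraries, a gap of 0.833 of the group's range. Pink1 had 269.9 CPM there, with a gap of 0.850 of the range up to 335 CPM. Tia1 had 72.7 CPM there, with a gap of 0.832 of the range up to 81.9 CPM.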

How the results depend on the processing

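Across 20 alternatives the log2 fold changes of Hsp90aa1, Hsp90ab1, Stip1, Ahsa1, Ptges3, Chordc1, Fkbp4 and Stub1 kept their sign. Ppid ranged from -0.061 to 0.017 with 1 library left out, above 0 without cKO replicate 2 (0.017), WT replicate 2 (0.010) or WT replicate 3 (0.010), and Cdc37 was 0.033 without WT replicate 1 and cKO replicate 3 together. The count of the 10 genes called was 1 (Chordc1) with no filter and 0 elsewhere. The count at an unadjusted p under 0.05 was 1 to 5 with 1 library left out and 1 without WT replicate 1 and cKO replicate 3 together. Over all genes, calls numbered 198 with no filter, 12 with DESeq2, 3 on log2(FPKM + 1) with no filter, 2 with the replicate block, 1 without those 2 libraries together and 0 to 3 with 1 library left out; the cause was not tested. The replicate block changed no call among the 10 genes, and its pairing is weak. Stub1 had the fewest reads of the 10 genes, 386 to 583 a library.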
